A study of Zea mays with 303 samples.

Results

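BIPE2 is a maize gene for BiP (binding protein), the Hsp70-type chaperone of the endoplasmic reticulum, and it was followed here across fixed single cells of early meiotic anthers. It is 1 of the 17140 features in the table of unique molecular identifiers (UMIs, 1 per captured transcript copy). The gene was chosen by measured values of these same cells, namely its level over all cells and library pools, its level in cells that carry GAPC3, CAB1 or C2 transcripts, and the features that follow it. Those values are therefore given as a description, with no test.

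BiP binds unfolded stretches of newly made proteins inside the endoplasmic reticulum and releases them in a cycle driven by ATP. It also takes part in the unfolded protein response, in which cells raise their chaperones when misfolded proteins build up. In maize, BiP is best known from the endosperm, where it accumulates in mutants with defective storage proteins. Anthers hold secretory cells too, among them the tapetum, which feeds the developing pollen and secretes wall material.

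The cells came from greenhouse-grown plants of the maize inbred line W23 bz2. Dissected anthers were put in Farmer's Solution, a fixative of acetic acid in ethanol, then treated with protoplasting enzymes, and single cells were taken with 1 of 2 sorters (BioSorter or Hana). Each sample was 1 cell, made into a library by a modified CEL-Seq2 protocol, which counts polyadenylated RNA from its 3' end. All cells formed 1 group with no treatment and no cell type, plant or culture named, so the group had no replicates and no test between groups was possible. Intervals below are exact 95% intervals that cover counting error only.

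The cells fell into 4 library pools with index numbers 6, 11, 28 and 29, which held 55, 78, 79 and 91 cells. The labels do not say what else differed between pools, so they were treated as technical batches. The table held 800166 UMIs, and a cell had a median of 1780 and a maximum of 9934. Median depth by pool, in that order, was 2942, 2803, 1162 and 1746 UMIs. No cell type could be assigned through markers. The meiocyte list (16 symbols) matched only RAD51B, with 6 UMIs in all, the epidermis list (7) only CR4, with 12, and the tapetum (15) and vascular (4) lists matched no feature. Of the dividing-cell list (5 symbols), MAD2 had 23 UMIs and PCNA had 5. The 3 endothecium markers CAB1, PSAH and RCA1 had 900, 98 and 11 UMIs.

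BIPE2 was sparse per cell, although 87.9% of the 17140 features had fewer UMIs. It had 70 UMIs over the 4 pools, in 51 cells, or 16.8% of all cells (12.8 to 21.5%, Clopper-Pearson). Of these cells, 36 had 1 BIPE2 UMI, 12 had 2, 2 had 3 and 1 had 4, and every other cell had none. The level over all cells was 87.5 CPM (UMIs per 1000000 UMIs counted), with a Poisson interval of 68.2 to 110.5. Because 1 UMI in a cell of median depth equals 562 CPM, a cell without a BIPE2 UMI cannot be called a cell without the transcript. Among the 51 cells with a UMI the level was 124.3 CPM at the lowest, 371 at the median and 2381 at the highest. No cell type known to lack BiP was available to measure free RNA against, so part of the single UMIs may be background. The gene table used here lists a second maize BiP gene, BIPE3, which is not among the counted features under that name and so was not analysed here. Whether it was counted under another identifier could not be told. How reads shared by the 2 genes were counted is not given in the sources used here, so the BIPE2 count may include some from BIPE3.

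By pool, the level was 72.3 CPM (39.5 to 121.3; 14 UMIs) in pool 6 and 60.4 CPM (34.5 to 98.1; 16 UMIs) in pool 11. It was 133.7 CPM (76.4 to 217.1; 16 UMIs) in pool 28 and 108.2 CPM (69.3 to 160.9; 24 UMIs) in pool 29. In order of level, from pool 11 through pools 6 and 29 to pool 28, no neighbours differed beyond their counting error. The ends of that order did, at a ratio of pool 28 to pool 11 of 2.21 (1.04 to 4.73), and it was the only 1 of the 6 pairs of pools with an interval above 1. Cells with a UMI numbered 8, 14, 12 and 17 in pools 6, 11, 28 and 29, or 14.5%, 17.9%, 15.2% and 18.7% of each pool's cells. The pools with the higher levels were the shallower ones, and the part of depth in this order was not tested. Summed over pools, cells deeper than their own pool's median had 85.8 CPM (54 UMIs) and the remaining cells 93.7 CPM (16 UMIs). The deeper and remaining cells had 72.1 and 72.8 CPM in pool 6 and 53.9 and 82.4 CPM in pool 11. Pool 28 had 117.1 and 194.1 CPM, and pool 29 had 117.5 and 69.5 CPM, so the direction was not shared. The intervals overlapped in every pool. Levels over all pools were also close across the barcode set. They were 88.6 CPM (44 UMIs) in cells with barcodes 1 to 48 and 85.7 CPM (26 UMIs) in those with barcodes 49 to 96. These 2 barcode groups stood at 59.7 and 85.9 CPM in pool 6 and 74.2 and 38.8 CPM in pool 11. For pool 28 they stood at 85.9 and 235.7 CPM, and for pool 29 at 124.2 and 72.5 CPM. Pools thus differed in direction, with overlapping intervals on 4 to 19 UMIs a side.

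**Figure D1:**
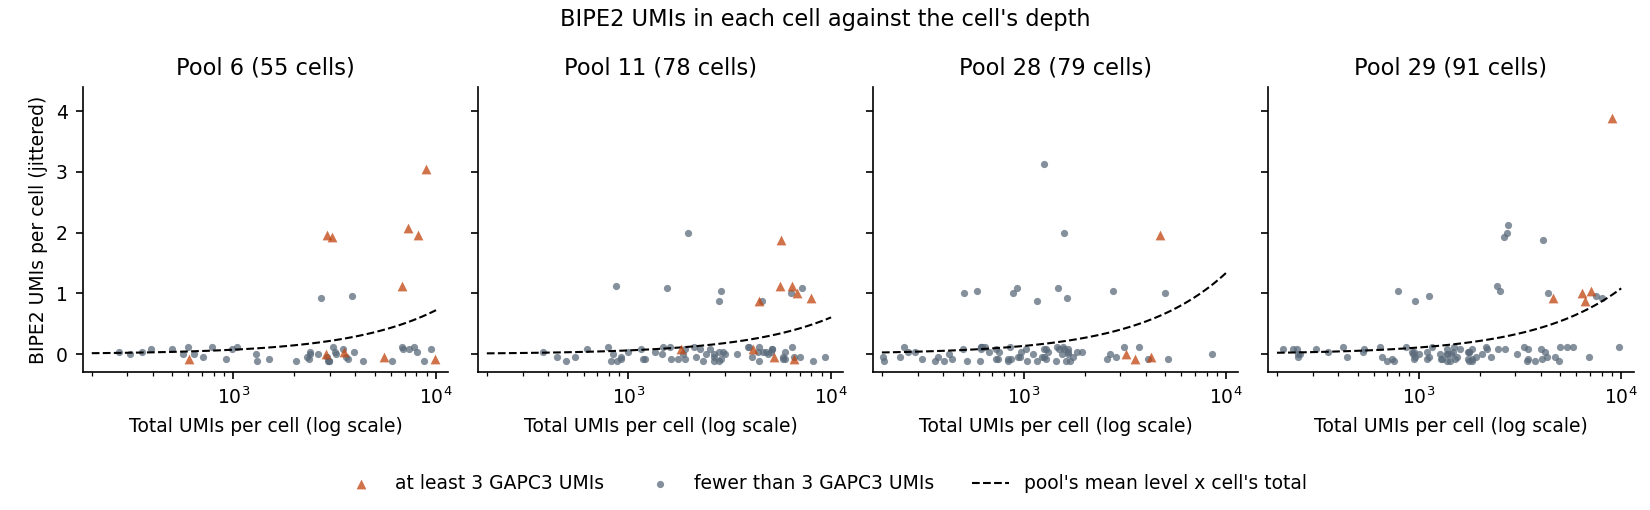
BIPE2 UMIs of each cell (vertical axis, points spread slightly around whole numbers) against the cell's total UMIs (log axis) in the 4 library pools. Triangles are the 30 cells with at least 3 GAPC3 UMIs and circles all other cells, and the dashed line is the count given by the pool's mean level. Most cells of every pool lie at 0, and the highest cell, with 4 UMIs, is in pool 29.

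The highest counts came from cells of very different depth. A pool 29 cell had 4 BIPE2 UMIs of 9042, and it also carried 3 GAPC3 and 3 CAB1 UMIs. A pool 6 cell had 3 of 8944 and carried 37 GAPC3 UMIs. A pool 28 cell had 3 of only 1260, which gives 2381 CPM, and carried 1 GAPC3 UMI. Over all cells the variance of BIPE2 UMIs was 1.25 times that of counting error, given each cell's depth and pool. Counting error alone would have spread the 70 UMIs over 58.4 cells, against the 51 observed. Of the 1190 features with 56 to 84 UMIs, whose median was 1.12 and whose range was 0.664 to 5.34, 31.1% lay above BIPE2. BIPE2 thus lay above the median of features of its abundance and well inside their range. The 3 genes that define the classes below were far more uneven, at 3.51 for GAPC3, 7.42 for CAB1 and 14.2 for C2.

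GAPC3 encodes a cytosolic glyceraldehyde-3-phosphate dehydrogenase of glycolysis, and 30 cells carried at least 3 of its UMIs. In these cells BIPE2 was found more often and at a higher level than in the other cells. The 30 cells with at least 3 GAPC3 UMIs had 29 BIPE2 UMIs, at 177.3 CPM (118.8 to 254.7), and all other cells had 41, at 64.4 CPM (46.2 to 87.4). The ratio was 2.75 (1.65 to 4.54), or a log2 fold of 1.33 with 10 CPM added to both levels. Among the 3171 features with at least 50 UMIs, 11.0% had a log2 fold of 1 or more in this contrast, 9.87% had that and a fold above 0 in each pool where both sides had at least 5 cells, and 5.36% reached the fold of BIPE2. The median feature stood at 0.09.

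At least 1 BIPE2 UMI was present in 18 of the 30 cells with at least 3 GAPC3 UMIs (60%), against 33 of the other cells (12.1%). Per cell, BIPE2 in the GAPC3 cells was 0 CPM at the lowest, 147.4 at the median and 690 at the highest, and in the other cells it was 0, 0 and 2381 CPM. The ranges thus overlapped fully, and the GAPC3 cells differed in how many of them had 1 to 4 UMIs. The GAPC3 class was also the deeper one, with a median of 5575 UMIs per cell against 1600 in the other cells. With every cell thinned to 1000 UMIs, the share with a BIPE2 UMI was 16.0% in 29 GAPC3 cells (1 shallower cell left out) and 6.55% in the other cells (86 left out). Unthinned, the same cells gave 62.1% and 13.9%. Among cells with at least 3000 UMIs, a comparison added after the values were seen, the GAPC3 cells had 173.8 CPM (27 UMIs, 26 cells) and the others 27.5 CPM (10 UMIs, 69 cells), a ratio of 6.32 (2.96 to 14.6). Median depths there were 6042 UMIs in the GAPC3 cells and 4766 in the others. The ratio was above that over all cells because the level of the others was lower, at 27.5 CPM against 64.4 CPM over all depths. The GAPC3 cells were nearly unchanged, at 173.8 against 177.3 CPM. A count of 3 GAPC3 UMIs is reached less easily in a shallow cell, so which cells make up the others also changes with depth. The lower level of the deep others therefore does not show that BIPE2 itself varied with depth. The part of depth in the contrast was not tested further.

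The GAPC3 contrast ran the same way in the 3 pools where both classes had at least 5 cells. In pool 6, BIPE2 was at 201.6 CPM in 11 GAPC3 cells (12 UMIs) and 14.9 CPM in 44 others (2 UMIs), a ratio of 13.5 (3.01 to 124.4). In pool 11 it was at 128.3 CPM in 10 GAPC3 cells (7 UMIs) and 42.8 CPM in 68 others (9 UMIs), a ratio of 3.00 (0.949 to 9.05). In pool 29 it was at 236.9 CPM in 5 GAPC3 cells (8 UMIs) and 85.0 CPM in 86 others (16 UMIs), a ratio of 2.79 (1.03 to 6.90). Pool 6 gave the largest of these ratios, with only 2 UMIs among its other cells, and in pool 11 the interval included 1. Pool 28 had only 4 GAPC3 cells, with 2 UMIs from 1 of them, and its ratio of 0.948 (0.105 to 4.13) allows a difference in either direction. By GAPC3 count, BIPE2 was at 57.4 CPM (25 UMIs) in cells with 0 GAPC3 UMIs, 93.1 CPM in the 51 cells with 1, 39.4 CPM in the 13 with 2, 151.5 CPM in the 12 with 3, 133.8 CPM in the 3 with 4 and 201.8 CPM in the 15 with 5 or more. The 2 groups of 13 and 3 cells rest on 2 BIPE2 UMIs each, so this order is not even.

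**Figure D2:**
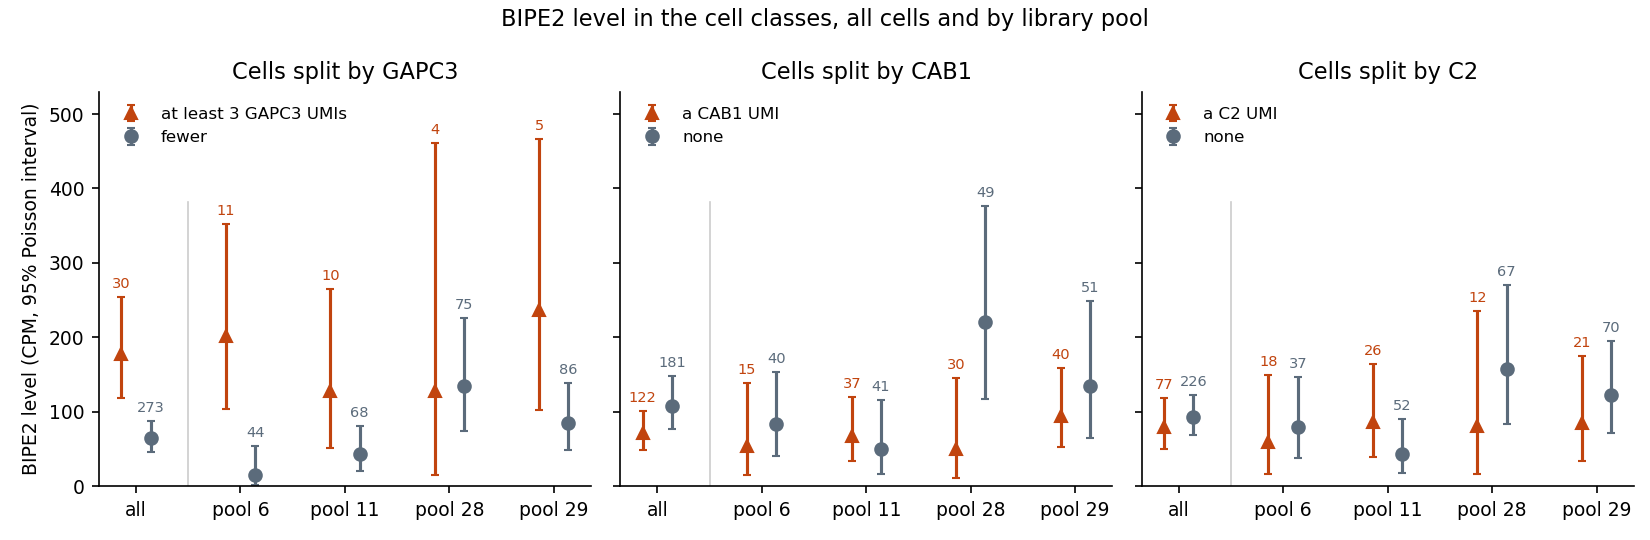
BIPE2 level (CPM, bars are 95% Poisson intervals, counting error only) in cells with a class gene (triangles, left) and without it (circles, right), for GAPC3, CAB1 and C2, over all cells and in each pool, with the number of cells above each bar. The GAPC3 cells lie above the others overall (177.3 against 64.4 CPM) and in pools 6, 11 and 29. The intervals of the GAPC3 classes overlap in pools 11, 28 and 29, and those of the CAB1 and C2 classes overlap in every pool.

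CAB1, a chlorophyll a/b-binding protein of the photosynthetic antenna, marked cells with a somewhat lower BIPE2 level, but not beyond counting error. BIPE2 was at 71.7 CPM (49.0 to 101.2; 32 UMIs) in cells with a CAB1 UMI and at 107.4 CPM (76.0 to 147.4; 38 UMIs) in cells without. Cells with CAB1 numbered 15, 37, 30 and 40 in pools 6, 11, 28 and 29, and cells without numbered 40, 41, 49 and 51. The ratio was 0.668 (0.404 to 1.098) and the log2 fold -0.52, and 27.9% of the 3171 features had a fold as low or lower. The median feature stood at -0.29 in this contrast. By pool, the ratio of cells with CAB1 to cells without was 0.648 (pool 6), 1.36 (pool 11), 0.225 (pool 28) and 0.701 (pool 29). Pool 28 alone had an interval below 1 (0.0411 to 0.818), with 49.5 CPM in cells with CAB1 and 220 CPM in cells without. Without pool 28 the log2 fold over the other pools was -0.15.

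Stricter CAB1 classes stood further apart, at log2 folds of -0.89 with 2 or more CAB1 UMIs and -1.02 with 3 or more. The largest, at -1.79, was that of the cells with CAB1 at 1000 CPM or more. The share of all features with a fold as low and the fold of the median feature are not given for this class. How far the lower level is particular to BIPE2 is therefore not known. In the class of cells with any CAB1 UMI, the median feature already stood at -0.29. BIPE2 had 6 UMIs in these 72 cells, or 25.7 CPM, and 64 UMIs in all other cells, or 113.01 CPM, a ratio of 0.227 (0.0803 to 0.522). In pools 6, 11, 28 and 29 the cells high in CAB1 had 0, 1, 1 and 4 of these UMIs, and the other cells had 14, 15, 15 and 20. In CPM, the cells high in CAB1 stood at 0, 11.3, 36.2 and 53.7 in the same pools, and the other cells at 93.1, 85.0, 162.97 and 135.7. The level was thus lower in the cells high in CAB1 in all 4 pools. The interval of the ratio lay below 1 in pool 11 (0.133, 0.00316 to 0.865) and included 1 in the other pools. Among cells with fewer than 3 GAPC3 UMIs, the ratio for this class was closer to 1, at 0.347 (0.119 to 0.833).

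The CAB1 and GAPC3 classes shared 18 cells, so each was also read within the other. Among the GAPC3 cells, BIPE2 was at 167.8 CPM in 18 cells with CAB1 and 192.8 CPM in 12 without, a ratio of 0.870 (0.392 to 2.00). Among cells with fewer than 3 GAPC3 UMIs, it was at 43.5 CPM in cells with CAB1 (15 UMIs) and 89.1 CPM in cells without (26 UMIs), a ratio of 0.488 (0.240 to 0.956). That second interval lay below 1 in a comparison made after the values were seen. CAB1 itself was at 367 CPM in the GAPC3 cells and 1319 CPM in the others.

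C2 encodes chalcone synthase, the first enzyme of flavonoid synthesis, and BIPE2 showed no difference with it beyond counting error. The level was 78.8 CPM (23 UMIs) in the 77 cells with a C2 UMI and 92.5 CPM (47 UMIs) in the cells without, a ratio of 0.851 (0.493 to 1.43). The log2 fold was -0.21, and 32.2% of features had one as low or lower, with the median feature at 0.00. By pool, the ratio of cells with C2 to cells without stood at 0.734 (pool 6), 1.99 (pool 11), 0.510 (pool 28) and 0.696 (pool 29), so its direction was not shared. With at least 3 C2 UMIs required, 30 cells had 117.8 CPM and all others had 81.7 CPM, a ratio of 1.44 (0.756 to 2.59), on the other side of 1.

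Taking the 3 class genes jointly, the order of BIPE2 levels followed GAPC3. Cells with at least 3 GAPC3 UMIs had 194.7 CPM without the other 2 class genes (11 cells, 12 UMIs), 152.5 CPM with CAB1 (7 cells, 7 UMIs) and 180.4 CPM with CAB1 and C2 (11 cells, 10 UMIs), and the 1 such cell with C2 alone, of 607 UMIs, had no BIPE2 UMI. Cells with CAB1 only had 40.1 CPM (72 cells, 8 UMIs), those with CAB1 and C2 had 48.1 CPM (32 cells, 7 UMIs), and those with C2 only had 66.4 CPM (33 cells, 6 UMIs). Cells with none of the 3 had 99.3 CPM (20 UMIs). The counting intervals of neighbours in this order overlapped.

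BIPE2 was lower in cells with a larger share of UMIs from 25 plastid-encoded features. This is not independent of the values that chose the gene, since the share was 4.72% in cells with a CAB1 UMI and 1.48% in cells without, and the plastid features are among those ranked against BIPE2 below. Plastids carry their own genome, and its transcripts take a larger share of RNA in greener cells. Cells of each pool were ranked by this share and divided into 3 groups of nearly equal size, a split chosen after values had been seen. BIPE2 was at 146.8 CPM (103.9 to 201.5; 38 UMIs) in the low group, 99.1 CPM (64.7 to 145.2; 26 UMIs) in the middle group and 21.5 CPM (7.89 to 46.8; 6 UMIs) in the high group. Median depths were 1777, 1835 and 1710 UMIs per cell, so the groups were of similar depth. Cells with a BIPE2 UMI numbered 25, 21 and 5 from the low to the high group.

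The ratio of the high to the low plastid group was 0.146 (0.0506 to 0.349). It was 0.109 in pool 6 (1 UMI in the high group, 9 in the low), 0.101 in pool 11 (1 and 8), 0.175 in pool 28 (2 and 10) and 0.196 in pool 29 (2 and 11), and all 4 intervals lay below 1. The log2 fold of the high over the low group was -2.32 for BIPE2, and the median feature that is not plastid-encoded stood at -0.67. With plastid UMIs left out of the totals these folds were -2.26 and -0.59. Of the 3171 features, 2.33% had a fold as low as BIPE2's that was also below 0 in every pool. The plastid share was 2.06% of UMIs in the GAPC3 cells and 3.61% in the others, so the 2 contrasts overlap in the cells they set apart, and the part of 1 in the other was not tested beyond the split that follows. Among cells with fewer than 3 GAPC3 UMIs, the 3 groups had 110, 78.2 and 23.5 CPM from low to high, and the ratio of high to low was 0.213 (0.0692 to 0.560). By pool, that ratio was 0.746 (0.0095 to 58.5) in pool 6, on 1 UMI a side, and 0.345 (0.0312 to 2.41) in pool 29. It was 0.0996 in pool 11 and 0.190 in pool 28, the pools in which the interval lay below 1.

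**Figure D3:**
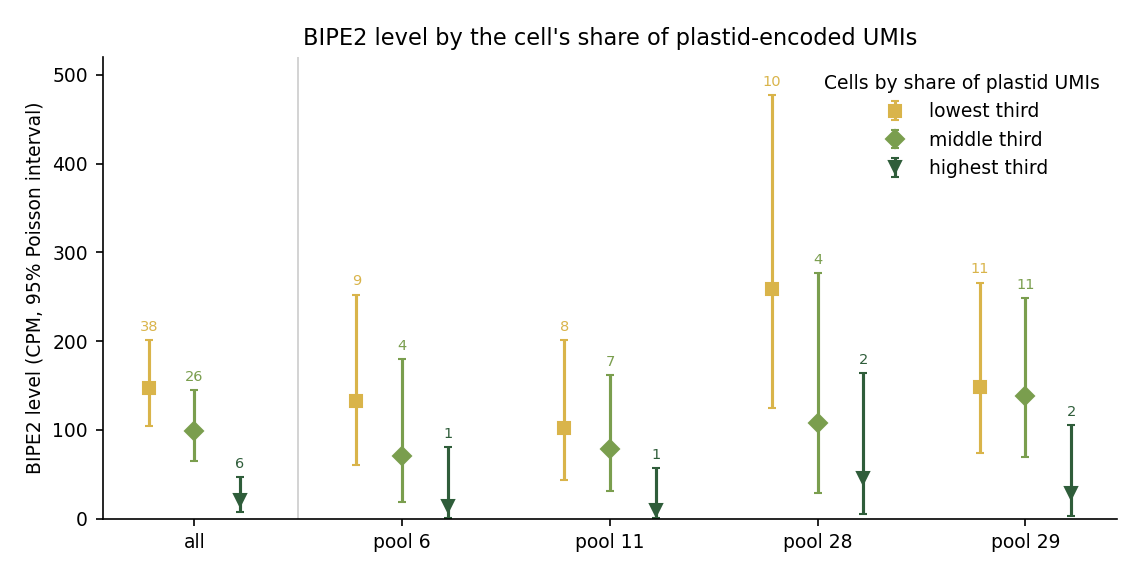
BIPE2 level (CPM, bars are 95% Poisson intervals) in cells grouped within each pool by their share of plastid-encoded UMIs, from the low group (squares) through the middle (diamonds) to the high group (triangles), with the BIPE2 UMIs of each group above its bar. The high group is lowest over all cells (21.5 CPM against 146.8 CPM in the low group) and in each of the 4 pools.

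Other genes of protein folding were few in the table under a symbol. The list of endoplasmic reticulum folding genes held 73 symbols, of which 5 matched: BIPE2 and the Derlins DER1.1, DER1.2, DER2.1 and DER2.2. Derlins are proteins of the endoplasmic reticulum membrane that help remove misfolded proteins for degradation. In cells with at least 3 GAPC3 UMIs, DER2.1 was at 122.3 CPM, against 110 CPM in the others, a ratio of 1.11 (0.641 to 1.85). DER1.1 was at 61.1 CPM in the GAPC3 cells and 66.0 CPM in the others, a ratio of 0.927 (0.415 to 1.88). DER2.2 was at 36.7 CPM in the GAPC3 cells and 25.1 CPM in the others, a ratio of 1.46 (0.468 to 3.93). The 3 Derlins with at least 20 UMIs thus showed no difference beyond counting error, and their median log2 fold was 0.14, beside 0.09 for all ranked features and 1.33 for BIPE2. DER1.2 had 3 UMIs in all.

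The other 2 lists gave 3 more genes. RAB2B, a small GTPase of traffic between the endoplasmic reticulum and the Golgi, was the only match among 36 secretory symbols, with 42.8 CPM in the GAPC3 cells and 23.6 CPM in the others (ratio 1.82, 0.627 to 4.73). CPN60I and CPN60II, chaperonins of the mitochondrion, were the matches among 36 symbols of other chaperones. CPN60I was at 207.9 CPM in the GAPC3 cells and 94.2 CPM in the others, a ratio of 2.21 (1.40 to 3.41). CPN60II was at 128.4 CPM in the GAPC3 cells and 42.4 CPM in the others, a ratio of 3.03 (1.63 to 5.56). Both intervals lay above 1, as did those of 22.8% of the 3171 features with at least 50 UMIs.

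To find features that follow BIPE2, depth-adjusted residuals of BIPE2 and of each feature were correlated over the cells of each pool, and features were ranked by the lowest of the 4 pool values of Pearson r. This is a description over cells that share libraries and depth. It rests on 8 to 17 cells with a BIPE2 UMI in a pool. Of 3156 features ranked, 100 (3.17%) had r of at least 0.1 in every pool. The values at that threshold were 0.101 just inside and 0.0994 just outside. A further 14 features with no UMI in at least 1 pool could not be ranked. In all, 474 features had r above 0 in every pool and 415 had r below 0 in every pool.

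The feature most like BIPE2 was Zm00001d054043, with r of 0.39 (pool 6), 0.37 (pool 11), 0.46 (pool 28) and 0.44 (pool 29). It was as sparse as BIPE2, with 61 UMIs in 45 cells, and 24 of those cells also held a BIPE2 UMI. Those 24 cells are 53.3% of its cells and 47.1% of the 51 BIPE2 cells. By pool, 3, 7, 5 and 9 cells in pools 6, 11, 28 and 29 held both. Its log2 fold between the GAPC3 classes was 0.53, below that of BIPE2.

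The next 9 features had lowest pool values between 0.24 and 0.29, and none of the 10 carries a gene name in the sources used here. In order they were Zm00001d034966, Zm00001d051053, Zm00001d012176, Zm00001d034032, Zm00001d048618, Zm00001d020983, Zm00001d026620, Zm00001d035776 and Zm00001d001829. They ranged from 63 UMIs (Zm00001d035776) to 4314 UMIs (Zm00001d048618). Pool 6 gave the largest r for 7 of these 9, up to 0.82 for Zm00001d001829. Measured in the same cells, 8 of the 10 had a log2 fold of at least 1 between the GAPC3 classes, the largest being 3.15 for Zm00001d012176, beside 11.0% of all features. These features were picked for likeness to a gene chosen partly by this contrast, so nothing is read from that count. The exceptions were Zm00001d054043 and Zm00001d020983, the second with a fold of 0.63.

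Of the 76 features ranked that bear a symbol, ANT2 and RPS4 reached 0.1 in every pool, or 2.63%, close to the 3.17% of all ranked features. ANT2, an ADP/ATP carrier of the mitochondrial inner membrane, had r of 0.45 (pool 6), 0.21 (pool 11), 0.13 (pool 28) and 0.11 (pool 29). RPS4, a cytosolic ribosomal protein, had 0.20, 0.10, 0.19 and 0.17 in the same pools. GAPC3 itself came next, with 0.56 (pool 6), 0.15 (pool 11), 0.13 (pool 28) and 0.098 (pool 29). After it came SIP1-2, an aquaporin, with a lowest value of 0.084, and ANT1, a second ADP/ATP carrier, with 0.079. The Derlin DER1.1 was the sixth symbol, with r of 0.03 (pool 6), 0.12 (pool 11), 0.13 (pool 28) and 0.097 (pool 29). SODCC.2 (a superoxide dismutase), TUBA6 (an alpha-tubulin) and SGS3 (a gene of RNA silencing) had lowest values of 0.016, 0.0097 and 0.0082, and TUBA1, another alpha-tubulin, had -0.03.

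The remaining list genes did not follow BIPE2 in every pool. CPN60I had r of 0.65 in pool 6 but -0.05 in pool 28, and CPN60II had 0.28 in pool 6 and -0.02 in pool 29. DER2.1 ranged between -0.08 in pool 11 and 0.15 in pool 28, DER2.2 between -0.08 and 0.17, and RAB2B between -0.03 and 0.22. Pool 6, with 14 BIPE2 UMIs in 8 cells, gave the largest r for CPN60I, CPN60II, DER2.2 and RAB2B, but not for DER2.1. For CPN60II and RAB2B pool 11 came next, at 0.23 and 0.13.

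Features that ran opposite to BIPE2 in every pool were led by rps3, a ribosomal protein encoded in the plastid, with r of -0.41 (pool 6), -0.27 (pool 11), -0.20 (pool 28) and -0.21 (pool 29). The next was rpoB, a subunit of the plastid RNA polymerase, whose values lay between -0.35 and -0.17. The unnamed Zm00001d000270, Zm00001d006401 and Zm00001d003767 followed, each with a highest pool value of -0.17. CAB1 had r of -0.23, -0.22, -0.16 and -0.20 in pools 6, 11, 28 and 29, and C2 ranged between -0.13 in pool 6 and 0.14 in pool 11. Of the 25 plastid-encoded features, 19 had r below 0 in every pool, beside 13.1% of all ranked features, and 8 were at -0.1 or lower in every pool, beside 2.25%. Their median r was -0.28, -0.23, -0.11 and -0.12 in pools 6, 11, 28 and 29, beside medians of 0.03, 0.03, -0.02 and -0.00 over all ranked features. Likeness to BIPE2 was among the values that chose the gene. The plastid features were also measured in the same cells and are not separate observations, so nothing is read from these counts.

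**Figure D4:**
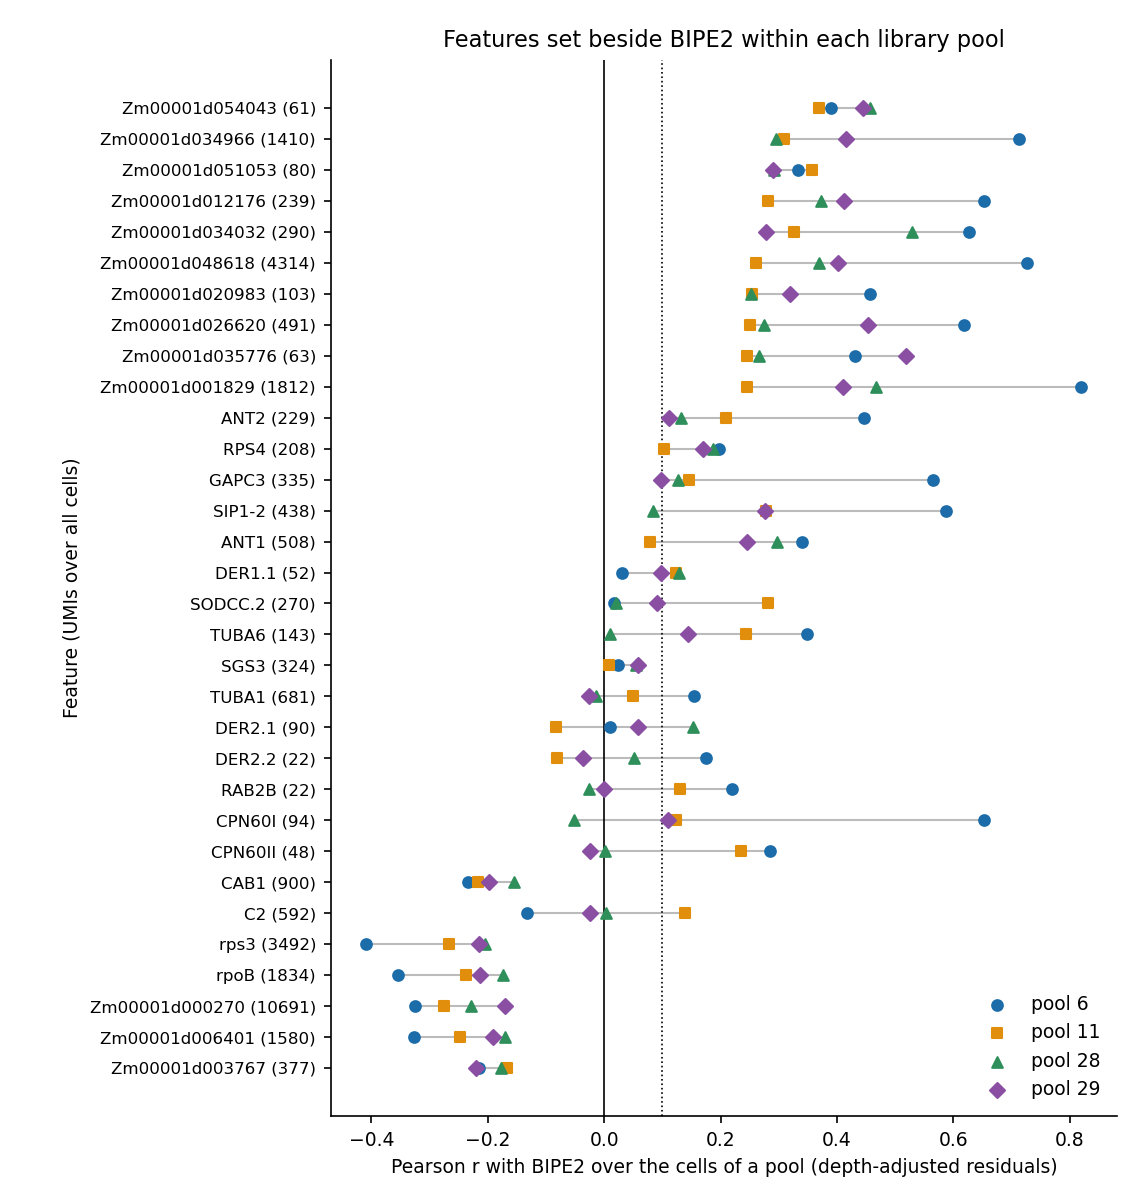
Pearson r between BIPE2 and each named feature over the cells of a pool (horizontal axis, depth-adjusted residuals, 1 symbol per pool), with the feature's total UMIs in brackets. The dotted line is the threshold of 0.1; the 10 features most like BIPE2 are at the top, from Zm00001d054043 down, and the plastid-encoded rps3 and rpoB are among the 5 opposite features at the foot.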

How the data were processed

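The values are UMI counts as the authors deposited them: whole numbers, not normalized, for each cell and feature. Per the submitters' processing notes, HISAT2 and the genome build B73 RefGen_v4 were used. The sources used here name no counter, annotation or cell filter. Every column of the table was matched to a sample by name, and no 2 cells had identical counts. Zm00001d identifiers (16854) had no match in the gene table, whose assembly (Zm-B73-REFERENCE-NAM-5.0) differs from the authors' build, and no coordinates are given.

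CPM was computed as summed UMIs over summed totals, scaled to 1000000, with exact 95% Poisson intervals, exact Clopper-Pearson intervals for shares and exact conditional intervals for ratios (scipy 1.17.1, numpy 2.4.6, pandas 2.3.3). All cells were kept, no doublet caller was run, and log2 folds had 10 CPM added. Likeness used Pearson residuals with expected count from cell total and pool, and a dispersion parameter (theta) of 100. Scripts were checked on simulated data. Named features were the 10 most alike, the 10 most alike with a symbol, the 5 most opposite, the class genes, and list genes with at least 20 UMIs. The gene, the class genes and the lists were chosen with earlier results of these data known. Alternatives covered cell filters, denominators, class thresholds, thinning to 1000 UMIs, weights, measures of likeness, and leaving out each pool.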

Additional observations from a re-analysis of the deposited data

How the results depend on the processing

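Of 86 alternative values, 73 stayed within the counting interval of the reported value (levels, shares and folds), within the SD of the pools (the variance ratio) or within 1.5 times it (the share of features that follow BIPE2). The BIPE2 level and its variance ratio stayed so under every alternative run. The share of cells with a BIPE2 UMI was 7.81% after thinning to 1000 UMIs. The GAPC3 log2 fold lay between 0.99 and 1.67 with each pool left out in turn. Chosen after seeing the data were 1.21 to 1.42 without any 1 cell and 2.29 among cells with at least 3000 UMIs. The GAPC3 fold was 0.98 with the class at 1 or more GAPC3 UMIs, 1.01 at 2 or more and 1.35 at 5 or more. With the class at 1000 CPM it was 1.096, and after thinning 1.05. The mean of per-cell CPM gave the lowest GAPC3 fold, 0.87, and the mean of within-pool log2 folds gave 1.45. With 0 CPM added it was 1.46, and with 50 CPM added 0.99. The CAB1 fold was -0.89 with the class at 2 or more CAB1 UMIs, -1.02 at 3 or more and -1.79 at 1000 CPM. The C2 fold was 0.48 with the class at 2 or more UMIs and again 0.48 at 3 or more, and over all cells neither direction was beyond counting error. The share of ranked features that follow BIPE2, 3.17% as reported, moved with the measure: 9.95% by Spearman rho of CPM (314 features), 7.64% by Pearson r of log2(CPM + 10), and 0.574% after thinning (17 features), which left 21 BIPE2 UMIs. It was 1.58% among features with at least 20 UMIs and 5.85% among those with at least 100. Leaving out a pool gave 3.87 to 6.65% (3.87% without pool 6, 5.70% without pool 11, 6.65% without pool 28, 5.99% without pool 29), since fewer pools had to pass. The causes of the other shifts were not tested. Of the 10 named followers, all were kept under both other measures, 9 in cells with at least 500 genes (Zm00001d020983 was lost), and only Zm00001d051053 and Zm00001d034032 after thinning. Leaving out a pool can lose none by construction. With 70 UMIs in all, depth limits every contrast within a pool. No paired analysis was possible because all cells formed 1 group.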
